A study of Mus musculus with 4 samples.

Results

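Axon guidance ligands and receptors were examined in fetal whole brain of the mouse strain C57BL/6J, after the mothers had been given ethanol. The genes were taken by name from the platform annotation: semaphorins of classes 3 to 7, plexins, neuropilins, Eph receptors, ephrins, Slits, Robos, Unc5 receptors, netrins 1, 3 and 4, and Dcc. Of 68 such genes in the gene table, 67 had a probe set with a single symbol, among 19938 genes measured in all, and Ephb2 is not analysed here. Of these 67 genes, 34 code for ligands and 33 for receptors. The ethanol group held 2 pools of fetal brains, whose mothers had been injected with ethanol at 2.5 g per kg of body weight in saline on gestational days 14 and 16. The control group held 2 pools from mothers injected with saline of equal volume. All brains were taken on gestational day 16, the sex of the fetuses is not known, and every pool combined the RNA of 3 mice (12 mice altogether). Each pool was hybridised to 1 Affymetrix whole-transcript array, and values are log2 brightness of a probe set, without unit, so that 1 unit is a doubling. The 12 neuronal markers were bright, with medians of 12.43 and 12.40 in ethanol and 12.26 and 12.41 in control. The array of control pool 1 stood highest in all of 12 skeletal muscle markers. Their median level was 7.45 and 8.39 in ethanol 1 and 2 and 9.88 and 7.46 in control 1 and 2. Counts are therefore also given without control 1. By this median ethanol 2 came next, so leaving out control 1 does not make the groups alike in these markers.

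Growing axons find their targets by reading cues on their path. Semaphorins, ephrins, Slits and netrins are such cues, secreted or held on cell surfaces, and most were first known for turning axons away, while netrin 1 can also attract. The growth cone reads them with plexins and neuropilins, Eph receptors, Robos, and Dcc or Unc5 receptors. In the fetal forebrain these systems act while thalamocortical, callosal and corticospinal axons are extending, and several also guide migrating neurons and sprouting vessels.

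No guidance gene passed the test across all genes. By limma's moderated test with Benjamini-Hochberg adjustment, 0 of the 67 had an adjusted p under 0.05 (smallest 0.980), against 0.0% of the 19938 genes, and the differences of the 67 genes ran from -0.21 to 0.24 (log2, ethanol minus control). At an unadjusted p under 0.05 there were 3 of the 67, namely the receptor Plxnb1, lower in ethanol, and the ligands Sema6c and Efna2, higher in ethanol. Across all genes 2.94% met that rule, 1.36% lower and 1.58% higher in ethanol. In the brighter part of the genes (the 9969 with the higher mean level over all arrays) the share was 3.88%. These 3 calls changed when an array was left out. Such a fit has 1 array in a group, which is assumed to vary like the other group, from which alone a gene's own spread is then taken. None of the 67 met the rule without ethanol 1 or without control 1. Without ethanol 2 there were 5, among them Plxnb1 and Sema6c but not Efna2. Without control 2 there were again 3, but these were Plxnd1, Ephb4 and Slit3, all lower in ethanol. The median standard error of a difference over the 67 genes was 0.076, and the 95% interval lay within a 1.5-fold change either way (0.585 on the log2 scale) for 66 of them and within a 1.2-fold change (0.263) for 40. The exception at 1.5-fold was Sema3d. Nothing in the sources used here says which litters entered which pool, so the p-values measure only the spread between these pools. In whole tissue, fewer cells of a type and less RNA per cell cannot be told apart.

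Most of the guidance genes lay slightly lower in ethanol. Of the 67, 48 had a difference below 0, with a median of -0.025, where 45.8% of all genes were below 0 with a median of 0.009. The guidance genes are mostly bright, however, and 53 of them lie in the brighter part of all genes, where 59.5% were below 0 with a median of -0.020. Among those 53, 38 were below 0, with a median of -0.026. The groups did not overlap in 20 of the 67 genes (29.9%), against 31.4% of all genes. Both ethanol arrays lay below both control arrays in 16 of these, against 14.0% of all genes, and above them in 4, against 17.4%. In the brighter part of the genes these numbers were 13 and 3 of 53, against 20.8% and 13.9%, and 34.8% in both directions. Without control 1, 39 of the 67 were below 0 (median -0.034), against 46.3% of all genes. After centring each array on its median, which adds the same amount to every gene's difference, 39 of the 67 (58.2%) were below 0. Over all genes the share was 38.2%, and the median of all genes moved from 0.009 to 0.026. Before centring, 50.3% of the brighter genes lay at or below -0.02 and 54.7% at or below -0.01. By that move, the share of brighter genes below 0 after centring lies between these. After quantile normalization of the values used here, 40 of the 67 (59.7%) were below 0, against 49.2% of all genes. The genes with separate groups split into 11 lower and 6 higher after centring (against 10.4% and 17.7% of all genes) and 15 lower and 5 higher after quantile normalization (against 15.0% and 16.7%). For the brighter genes alone, no shares were taken after quantile normalization, nor for separate groups after centring. In only 4 of the 20 genes with separate groups was the gap between the nearest ethanol and control arrays over 0.1, and in 12 it was under 0.05. The difference between the group means was larger than both differences between pools of 1 group in 18 of the 67 genes, against 19.0% of all genes.

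**Figure D1:**
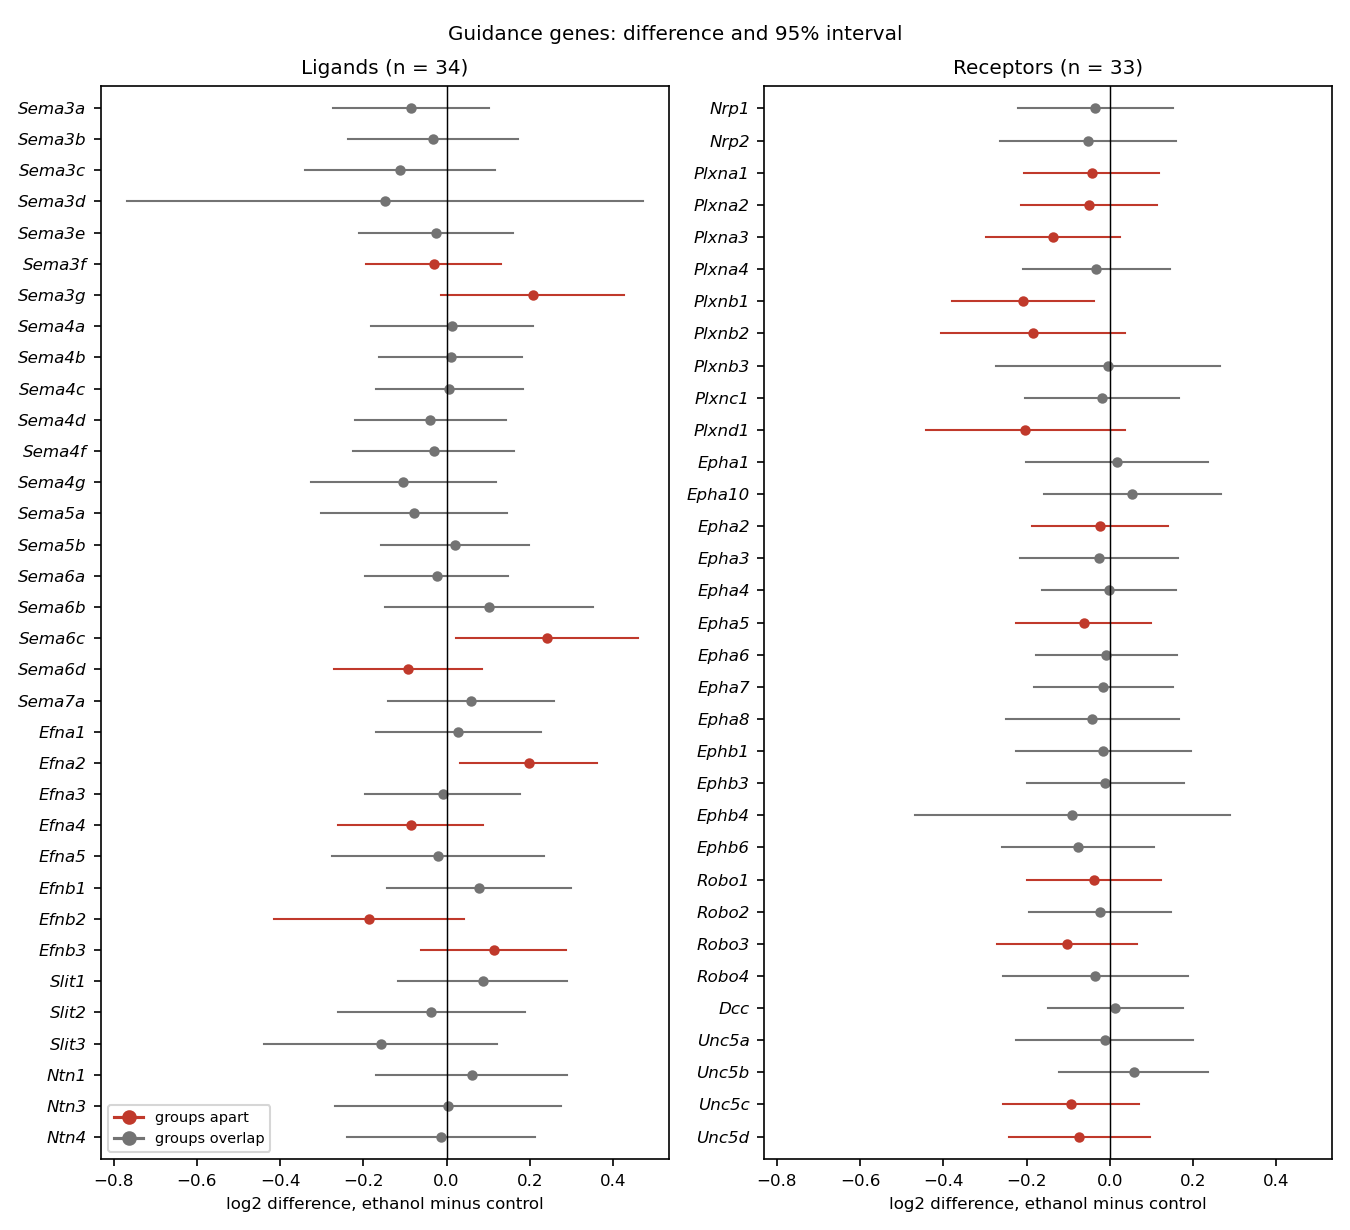
Log2 difference (ethanol minus control) of each of the 67 guidance genes, with its 95% interval from limma on 2 arrays per group, for 34 ligands and 33 receptors. Red marks the 20 genes whose ethanol and control arrays do not overlap; only Plxnb1, Sema6c and Efna2 have an interval that leaves out 0, and none passed the adjusted test.

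Plxnb1 and Efna2 had the smallest p among the 67 genes. Plxnb1 (probe set 10589368), the receptor for the semaphorin Sema4d, stood at 10.33 and 10.40 in ethanol and at 10.59 and 10.56 in control. The ethanol arrays lay below both control arrays, with a difference of -0.21 ± 0.07 (log2, SE), a 95% interval from -0.38 to -0.04 and an unadjusted p of 0.0246 by limma. Efna2 (probe set 10364722), a lipid-anchored ligand of EphA receptors that takes part in mapping retinal axons, stood at 10.23 on both ethanol arrays and at 10.01 and 10.05 in control. It was higher in ethanol by 0.20 ± 0.07, with an interval from 0.03 to 0.36 and an unadjusted p of 0.0267 by limma. Sema6c (probe set 10494174), a transmembrane semaphorin, had the largest difference of the 67. It stood at 10.24 and 10.05 in ethanol and at 9.87 and 9.93 in control, higher in ethanol by 0.24 ± 0.09 (interval 0.02 to 0.46, unadjusted p = 0.0364 by limma). For each of these 3 genes the adjusted p was 0.980. With each array left out in turn the difference ran from -0.24 to -0.17 for Plxnb1, from 0.17 to 0.22 for Efna2 and from 0.15 to 0.34 for Sema6c, for which the lowest value came without ethanol 1. Without ethanol 2, the 0.34 of Sema6c had an adjusted p of 0.573.

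The sequences just upstream of these 3 genes are shown because they are the members nearest to the threshold. They were chosen after their values were seen. Each is the 250 bases before the annotated start in RefSeq (GRCm38.p6), read 5′ to 3′ on the gene's strand, with the GC box (GGGCGG, or its complement CCGCCC) in capitals. For Sema6c, which has 2 annotated starts, the first is given, and the window of the other holds 0 GC boxes.
Plxnb1, chr9:109095186-109095435, + strand: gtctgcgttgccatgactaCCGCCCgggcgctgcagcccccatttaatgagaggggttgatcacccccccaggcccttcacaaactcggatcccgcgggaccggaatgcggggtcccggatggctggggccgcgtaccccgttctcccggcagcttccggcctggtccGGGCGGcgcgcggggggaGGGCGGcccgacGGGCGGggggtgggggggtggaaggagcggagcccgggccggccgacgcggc
Efna2, chr10:80179232-80179481, + strand: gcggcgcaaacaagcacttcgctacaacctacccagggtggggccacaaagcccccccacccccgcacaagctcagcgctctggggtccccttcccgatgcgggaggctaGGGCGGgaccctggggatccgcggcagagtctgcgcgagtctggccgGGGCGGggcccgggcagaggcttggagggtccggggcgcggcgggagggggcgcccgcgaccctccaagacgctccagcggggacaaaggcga
Sema6c, chr3:95160170-95160419, + strand: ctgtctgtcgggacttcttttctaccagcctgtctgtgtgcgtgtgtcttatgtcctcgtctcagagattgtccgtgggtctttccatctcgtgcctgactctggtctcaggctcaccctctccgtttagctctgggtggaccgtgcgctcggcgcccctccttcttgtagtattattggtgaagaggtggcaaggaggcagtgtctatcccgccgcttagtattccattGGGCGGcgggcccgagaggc
The GC box, bound by Sp-family factors, occurred 4 times in the window of Plxnb1, 2 times in that of Efna2 and 1 time in that of Sema6c, on either strand and with no overlaps. These windows held 30, 25 and 15 CpG pairs at 75.2%, 73.6% and 57.6% G and C. The TATA box (TATAAA, either strand) was found in none of the 3, and CCAAT (either strand) 2 times in Sema6c alone. Windows were found for 57 of the 67 guidance genes (73 windows). Of these, 72.6% held a GC box and 2.74% a TATA box, with a median of 15 CpG pairs, against 32.7%, 12.4% and 6 over all 32851 windows. CCAAT occurred in 26.0% of the guidance windows and 33.9% of all windows. All windows together cover 27025 genes, more than the 19938 measured. No shares were taken for the measured or the brighter genes alone. The letters are a description of the windows and were not set against the ethanol differences.

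Semaphorins were spread around 0, with 12 of 20 below it and a median of -0.028. Among the secreted class 3 members, 6 of 7 were below 0 and Sema3g was above. Sema3g, known from vessels, stood at 7.15 and 6.95 in ethanol and at 6.86 and 6.82 in control, with a difference of 0.21 ± 0.09. Its ethanol arrays lay above both control arrays, and without ethanol 1 the difference was 0.11. Sema3a, the repellent that acts through neuropilin 1, stood at 10.09 and 10.19 in ethanol and at 10.27 and 10.18 in control (-0.08 ± 0.08). Its groups overlapped, since ethanol 2 was above control 2. Sema3c stood at 9.06 and 9.28 in ethanol and at 9.31 and 9.25 in control (-0.11 ± 0.09). Sema3f, a ligand of neuropilin 2, was nearly flat at 9.91 and 9.93 in ethanol and 9.95 on both control arrays. Its groups did not overlap, yet the difference was only -0.03 ± 0.06. Sema3b and Sema3e, the second a direct ligand of Plxnd1, both had differences of -0.03.

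Sema3d was the member that varied most between pools of 1 group. It stood at 7.29 and 7.89 in ethanol and at 8.01 and 7.47 in control, so that ethanol 1 and control 2 were low and ethanol 2 and control 1 high. Its difference was -0.15 ± 0.25, with an interval from -0.77 to 0.47. The 10 pericyte and meningeal markers had the same order of arrays in their medians, as described further on. That order was also found in Sema3a, Sema3c, Sema3e, Sema5a, Efna5, Epha3 and Slit3, which makes 8 of 67 guidance genes, against 7.73% of all genes and 5 of the 10 markers. Its part in these genes' differences was not tested, and the order was looked for after the values had been seen.

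Of the 13 membrane-bound semaphorins of classes 4 to 7, 6 were below 0, with a median of 0.007. Sema6d, a ligand of Plxna1, stood at 11.27 and 11.30 in ethanol and at 11.43 and 11.33 in control, with separate groups and a difference of -0.09 ± 0.07 (-0.04 without control 1). Sema6c, given before, was the other one with separate groups, and it lay on the opposite side. Sema6b had differences of 0.10 ± 0.10 in its pair of probe sets, which hold identical values on all 4 arrays and so count once. Sema4g had a difference of -0.10 ± 0.09, which rests on control 2 (10.35, against 10.14 on control 1 and on both ethanol arrays). Sema5a, which can attract or repel, had a difference of -0.08 ± 0.09. Sema7a, a lipid-anchored semaphorin that binds Plxnc1 and integrins, had a difference of 0.06 ± 0.08. The remaining members, Sema4a, Sema4b, Sema4c, Sema4d, Sema4f, Sema5b and Sema6a, had differences between -0.04 and 0.02. A second probe set of Sema4d, the ligand of Plxnb1, had a difference of -0.15, with both ethanol arrays (9.01 on each) below both control arrays (9.10 and 9.22).

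**Figure D2:**
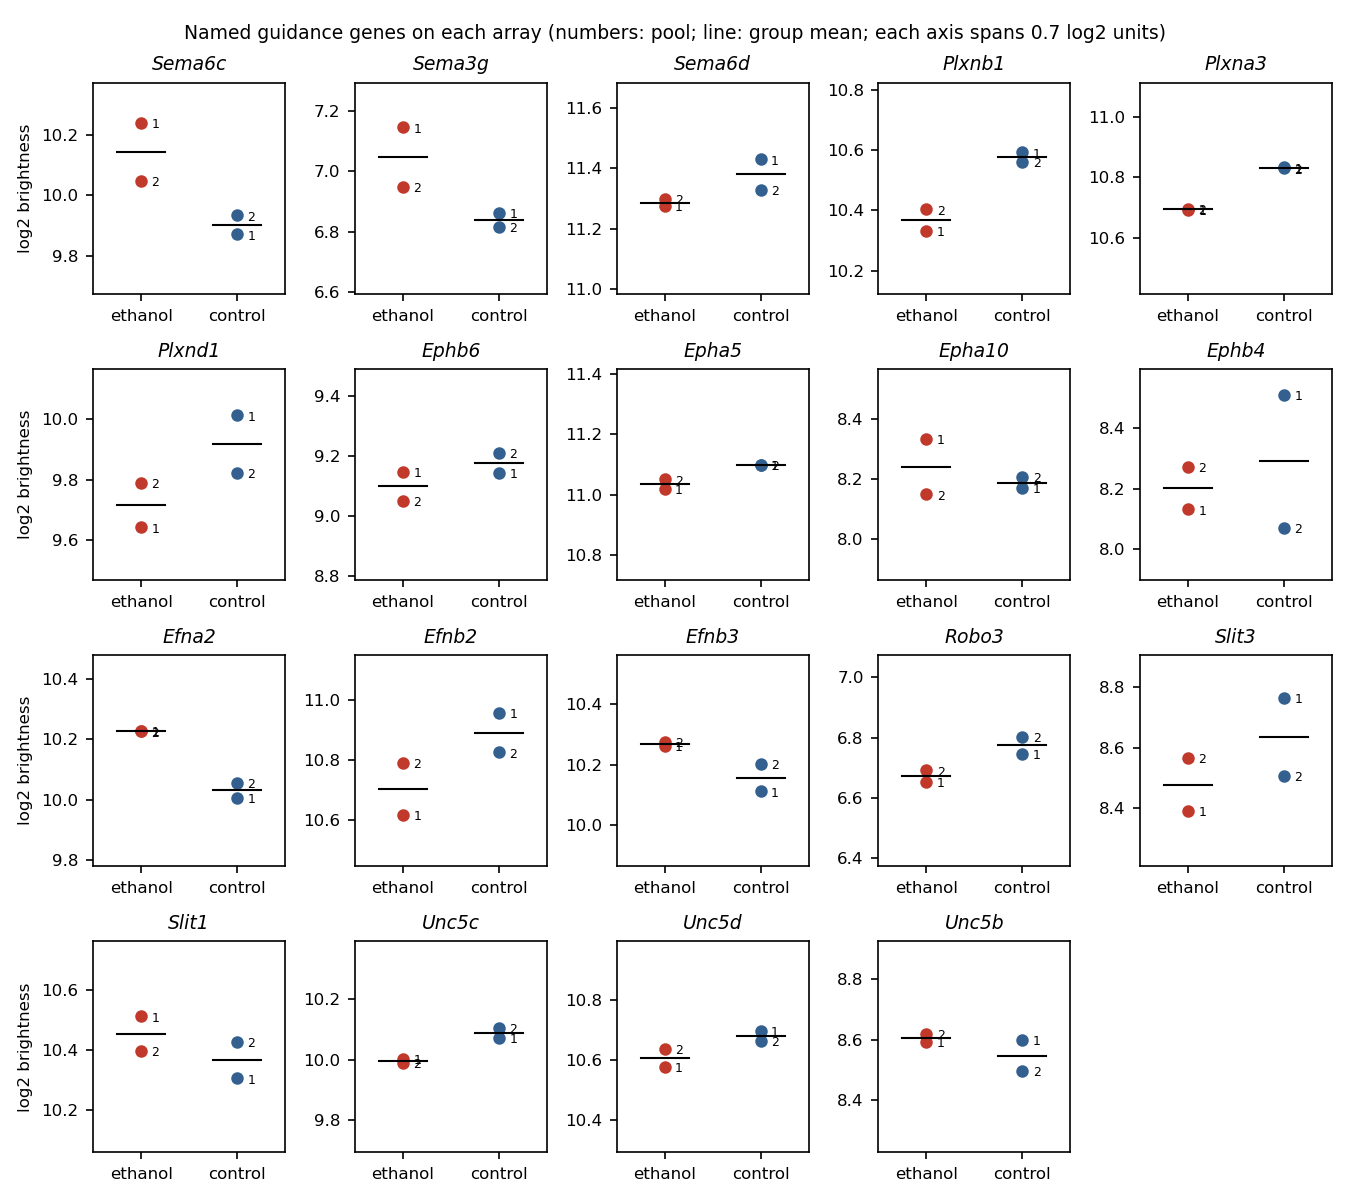
Log2 brightness on each array for the 19 guidance genes described in full, with ethanol left of control, the pool number beside each point and a line at the group mean. Each panel spans 0.7 log2 units; in Plxna3 and Efna2 the pools of a group nearly coincide, while in Ephb4 the control pools stand at 8.51 and 8.07 on either side of both ethanol pools.

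Plexins lay on 1 side. All 9 had a difference below 0 (median -0.050), and in 6 of the 9 both ethanol arrays lay below both control arrays, while 0 lay above. Over all genes these shares were 14.0% lower and 17.4% higher, and among the brighter genes, to which 8 of the 9 belong, 20.8% and 13.9%. The count below 0 was 8 of 9 after centring each array on its median and after quantile normalization, against 38.2% and 49.2% of all genes. For the brighter genes the share after centring lies between 50.3% and 54.7%. The number with separate groups, all lower, was then 4 after centring (10.4% of all genes) and 6 after quantile normalization (15.0% of all genes). With an array left out, 7 to 9 were below 0, the fewest without control 2, against 42.5% to 54.6% of all genes. Since this family was singled out after its values were seen, these counts are a description.

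The class B plexins, receptors of class 4 and 5 semaphorins, held the largest plexin difference, that of Plxnb1. Plxnb2, which binds Sema4c and acts in cerebellar and cortical progenitors, stood at 10.63 and 10.81 in ethanol and at 10.95 and 10.86 in control. Its groups were separate by 0.045, and the difference was -0.18 ± 0.09. Plxnb3 had a difference of -0.004 ± 0.11 and lay below the lower quartile of all probe sets on 3 of the 4 arrays, so its level is low. Plxnd1, the receptor of Sema3e in vessels and in some neurons, stood at 9.64 and 9.79 in ethanol and at 10.01 and 9.82 in control (-0.20 ± 0.10). Control 1 was high, and the gap between ethanol 2 and control 2 was 0.035. The difference was -0.11 without control 1 and -0.13 without ethanol 1. Plxnc1, the Sema7a receptor, overlapped between groups at -0.02 ± 0.07.

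Class A plexins, which signal for class 3 semaphorins together with neuropilins and bind class 6 semaphorins directly, varied little between pools. Plxna3 stood at 10.69 and 10.70 in ethanol and at 10.83 on both control arrays. Its difference of -0.14 ± 0.06 was larger than the 0.0041 between the ethanol pools and the 0.0038 between the control pools, and it lay between -0.14 and -0.13 with any array left out. The ordinary linear model, which uses only the gene's own spread, gave an unadjusted p of 0.000418 and an adjusted p of 0.764, while limma's moderated test gave 0.0821 and 0.980. Plxna1 and Plxna2 were separate between groups by under 0.03, at -0.04 ± 0.07 and -0.05 ± 0.07. Plxna4 overlapped, at -0.03 ± 0.07. The neuropilins, the binding partners that give class 3 semaphorins their specificity, overlapped between groups too. Nrp1 stood at 11.01 and 10.88 in ethanol and at 10.99 and 10.97 in control, and Nrp2 at 10.46 and 10.64 in ethanol and at 10.61 and 10.59 in control.

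Eph receptors are receptor tyrosine kinases that repel or attach axons on contact with cells that carry ephrins. Of the 13 measured, 11 were below 0, with a median of -0.016. Over all genes 45.8% were below 0, with a median of 0.009, and among the brighter genes 59.5%. Centring each array on its median moved both medians alike, to 0.001 for the Eph receptors and 0.026 over all genes. The count below 0 was then 4 of 9 EphA and 2 of 4 EphB receptors, against 38.2% of all genes. After quantile normalization it was 6 of 9 and 2 of 4, against 49.2% of all genes. Only Epha5 and Epha2 had separate groups, both with ethanol lower (15.4%, against 14.0% of all genes). Epha5, a receptor of forebrain projection neurons, stood at 11.02 and 11.05 in ethanol and at 11.10 on both control arrays (-0.06 ± 0.07). Epha2 was separate by less than 0.001 and was below the lower quartile on all arrays, as was Epha1. Epha4, through which ephrin-B3 keeps corticospinal axons on their side, stood at 11.13 and 11.11 in ethanol and at 11.13 and 11.12 in control, with overlapping groups and an interval of the difference from -0.16 to 0.16. The differences were -0.02 ± 0.07 for Epha7 and -0.03 ± 0.08 for Epha3, both receptors of ephrin-A ligands on cortical and thalamic cells, -0.01 ± 0.07 for Epha6, -0.04 ± 0.08 for Epha8 and 0.02 ± 0.09 for Epha1.

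The kinase-inactive Epha10 had a difference of 0.05 ± 0.09, and its second probe set one of -0.08, so its direction is not settled. Among the EphB receptors, Ephb6, likewise without kinase activity, stood at 9.15 and 9.05 in ethanol and at 9.14 and 9.21 in control (-0.08 ± 0.07). The groups of Ephb6 overlapped by less than 0.01, and without ethanol 2 the difference was -0.03. Ephb4, the venous receptor for ephrin-B2, stood at 8.13 and 8.27 in ethanol and at 8.51 and 8.07 in control. Its difference of -0.09 ± 0.15 turned to 0.13 without control 1. Ephb3 had a difference of -0.01 ± 0.08. Ephb1, which sorts retinal axons at the chiasm, had a difference of -0.02 ± 0.08 in its brighter probe set. Its second set stood at 9.41 and 9.28 in ethanol and at 9.54 and 9.72 in control, a difference of -0.29. That was larger in size than the difference of any of the 67 representative sets, and both ethanol arrays lay below both controls, so the sets of Ephb1 disagree.

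Ephrins went in both directions, with 4 of 8 below 0 and a median of 0.009. The lipid-anchored ephrin-A ligands held Efna2, given before, and Efna4, which stood at 8.04 and 8.12 in ethanol and at 8.18 and 8.15 in control (-0.09 ± 0.07). The groups of Efna4 were separate by 0.030. Efna5, a repellent of retinal and thalamic axons, varied between pools at 10.48 and 10.65 in ethanol and 10.69 and 10.48 in control. Its difference was -0.02 ± 0.10. Efna1 and Efna3 had differences of 0.03 ± 0.08 and -0.01 ± 0.08.

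The transmembrane ephrin-B ligands, which can also signal back into the cell that carries them, divided. Efnb2, of arteries and of neural progenitors, stood at 10.62 and 10.79 in ethanol and at 10.96 and 10.83 in control, and its difference was -0.19 ± 0.09. It was -0.10 without ethanol 1 and -0.12 without control 1. Efnb3, the midline barrier to corticospinal axons, stood at 10.26 and 10.28 in ethanol and at 10.11 and 10.20 in control, higher in ethanol by 0.11 ± 0.07 (0.07 without control 1). Both genes had separate groups, on opposite sides. Efnb1, whose loss in mice disturbs the midline of the face and brain, had overlapping groups and a difference of 0.08 ± 0.09.

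Slits are secreted repellents of the midline, and Robos are their receptors. All 4 Robos were below 0, also after both rescalings, though 3 of 4 without ethanol 1, without ethanol 2 or without control 1, with a median of -0.036. Robo1 and Robo2, the main receptors on forebrain axons, stood at 12.17 and 12.18 in ethanol and 12.21 and 12.22 in control for Robo1, and at 12.13 and 12.19 in ethanol and 12.17 and 12.20 in control for Robo2. The groups of Robo1 were separate by 0.026, while those of Robo2 overlapped. Robo3, which allows commissural axons to cross, stood at 6.65 and 6.69 in ethanol and at 6.75 and 6.80 in control. The groups of Robo3 were separate, with a difference of -0.10 ± 0.07, at a level only slightly above the lower quartile of the arrays (6.45 to 6.55). The endothelial Robo4 had a difference of -0.03 ± 0.09.

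The 3 Slits all overlapped between groups. Slit3 stood at 8.39 and 8.56 in ethanol and at 8.76 and 8.51 in control (-0.16 ± 0.11), and its difference ran from -0.29 to -0.03 with an array left out, the smallest without control 1. Slit1 stood at 10.51 and 10.40 in ethanol and at 10.31 and 10.43 in control (0.09 ± 0.08), with a difference of 0.03 without ethanol 1 or without control 1. Slit2 stood at 10.51 and 10.59 in ethanol and at 10.68 and 10.49 in control (-0.04 ± 0.09).

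Netrin 1 attracts axons through Dcc and repels them where Unc5 receptors join in. Dcc stood at 11.79 and 11.77 in ethanol and at 11.79 and 11.76 in control, with overlapping groups and an interval from -0.15 to 0.18. Ntn1 stood at 8.65 and 8.86 in ethanol and at 8.65 and 8.73 in control (0.06 ± 0.09). Ntn3 and Ntn4, the second a netrin of basement membranes, had differences of 0.004 ± 0.11 and -0.01 ± 0.09. Among the Unc5 receptors, Unc5c stood at 10.00 and 9.99 in ethanol and at 10.07 and 10.11 in control, with separate groups and a difference of -0.09 ± 0.07. Unc5d, also a receptor for the adhesion protein Flrt2, stood at 10.58 and 10.64 in ethanol and at 10.70 and 10.66 in control (-0.07 ± 0.07). The groups of Unc5d were separate by 0.026, but its second probe set had a difference of 0.06 with overlapping groups, and the mean of both sets one of -0.006. Unc5a had a difference of -0.01 ± 0.09. The vascular Unc5b stood at 8.59 and 8.62 in ethanol and at 8.60 and 8.50 in control (0.06 ± 0.07), and without control 2 the difference was 0.006.

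Grouped by role, receptors were more one-sided than ligands. Of 33 receptors, 29 were below 0 (87.9%, median -0.035), with 12 whose ethanol arrays lay below both control arrays and 0 above. Of 34 ligands, 19 were below 0 (55.9%, median -0.017), with 4 separate on each side. Over all genes 14.0% were separate and lower and 17.4% separate and higher, and among the brighter genes 20.8% and 13.9%. In the brighter part of the genes the shares below 0 were 88.5% of 26 receptors and 55.6% of 27 ligands, against 59.5% of all brighter genes. After centring each array on its median, 22 of 33 receptors and 17 of 34 ligands were below 0, against 38.2% of all genes. For the brighter genes, which hold 26 of these receptors and 27 of these ligands, that share lies between 50.3% and 54.7%. After quantile normalization 24 receptors and 16 ligands were below 0, against 49.2% of all genes. Separate receptors were 7 lower and 2 higher after centring, and separate ligands 4 and 4, against 10.4% and 17.7% of all genes. After quantile normalization they were 12 and 1 for receptors and 3 and 4 for ligands, against 15.0% and 16.7%. With an array left out, 22 to 25 of the receptors were below 0, against 42.5% to 54.6% of all genes. The median size of a receptor's difference was 0.037, smaller than the 0.053 and 0.038 that separated the ethanol pools and the control pools from each other. These measures are unlike, since the first lies between means of 2 arrays and the others between single arrays, which vary more. The division by role was drawn after the values were seen, and the difference between the roles was not tested.

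**Figure D3:**
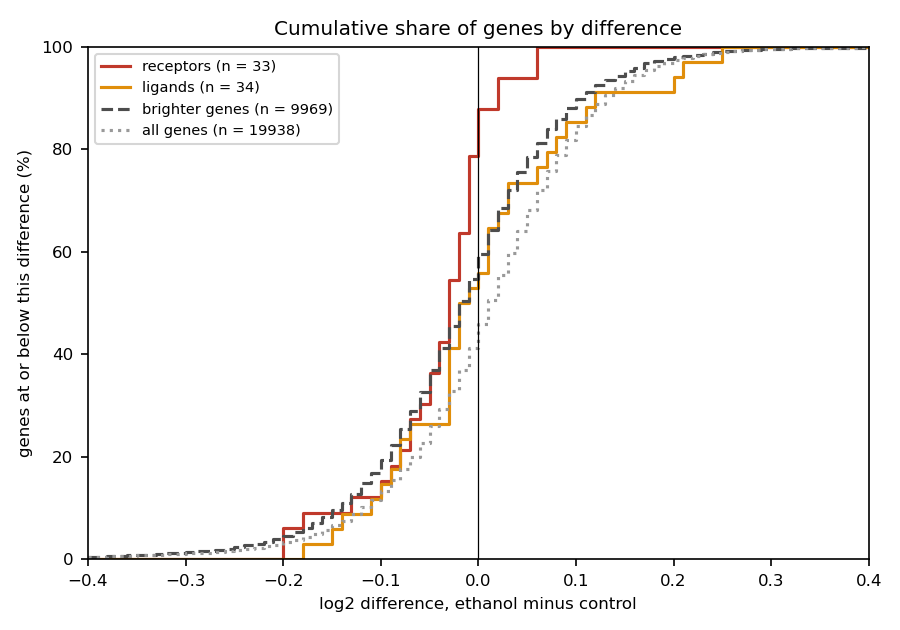
Cumulative share of genes (percent, vertical axis) with a log2 difference, ethanol minus control, at or below the value on the horizontal axis, for 33 receptors, 34 ligands, 9969 brighter genes and all 19938 genes. The curve of the receptors reaches 87.9% at 0, and that of the ligands 55.9%, close to the brighter genes at 59.5%.

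Other genes of the same pathways had no call either. Of 54 further cues, coreceptors and cytoplasmic effectors, 51 were measured, and 33 of these (64.7%) were below 0 with a median of -0.018, against 45.8% of all genes and 59.5% of the brighter genes. Separate groups were found in 9 that were lower (17.6%, against 14.0% of all genes) and 4 that were higher in ethanol (7.84%, against 17.4%). Among the brighter genes these shares were 20.8% and 13.9%. By limma, 0 passed the adjusted test and 1 had an unadjusted p under 0.05, against 2.94% of all genes. This was Rgma, a ligand of the Dcc relative neogenin, which stood at 10.82 and 10.75 in ethanol and at 10.40 and 10.63 in control (0.27 ± 0.10). The kinase Fyn, which acts below several of these receptors, stood at 11.27 and 11.47 in ethanol and at 11.53 and 11.64 in control (-0.21 ± 0.09).

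The pools differed more in markers of muscle, pericytes and meninges, endothelium and dividing cells than in the guidance families. Given as the median deviation from each gene's mean, 10 pericyte and meningeal markers stood at -0.27 and -0.004 in ethanol 1 and 2 and at 0.50 and -0.16 in control 1 and 2. The 10 endothelial markers stood at -0.08 on both ethanol arrays and at 0.16 and -0.01 in control. Markers of dividing cells (7 measured of 8) stood at -0.26 and 0.03 in ethanol and at 0.34 and -0.12 in control. The 8 markers of radial glia and progenitors stood at 0.03 and -0.03 in ethanol and at 0.03 and -0.05 in control. The median of 12 neuronal markers lay between -0.05 and 0.02 on the 4 arrays. Single neuronal markers differed more and in both directions, with 5 below 0 and 7 above. Tubb3 stood at 11.15 and 11.45 in ethanol and 11.71 and 11.65 in control. Its difference of -0.38 ± 0.11 is larger in size than that of any of the 67 guidance genes. Snap25 (0.19 ± 0.09) and Gap43 (0.11 ± 0.08) lay on the other side. Of 5 markers of the oligodendrocyte lineage, 2 were below 0, namely Cspg4 (-0.21 ± 0.09) and Pdgfra (-0.19 ± 0.16). Of the 3 above 0, Olig2 had the largest difference. It stood at 9.76 and 9.55 in ethanol and at 9.27 and 9.36 in control (0.35 ± 0.09). These single markers are named here after their values were seen, and their relation to the guidance genes was not tested. The plexins and neuropilins stood at -0.03 and -0.02 in ethanol and at 0.04 on both control arrays. Without control 1, 8 of 9 plexins were below 0, against 46.3% of all genes. Leaving out control 1 does not make the groups alike in muscle markers, and the part of tissue in the plexin differences was not tested. The members known from vessels (Robo4, Plxnd1, Unc5b, Ephb4, Efnb2, Efna1, Epha2, Nrp1 and Sema3g) had 6 of 9 below 0 and a median of -0.035, and all 10 endothelial markers were below 0 with a median of -0.16. Among these 9, Plxnd1, Efnb2, Ephb4 and Robo4 were highest in control 1, as were 9 of the 10 endothelial markers. Sema3g, Efna1 and Nrp1 were highest in ethanol 1, Unc5b in ethanol 2 and Epha2 in control 2. In all, 22 of the 67 guidance genes and 5335 of the 19938 genes were highest in control 1. Without these 9 genes, 42 of 58 were below 0 (median -0.025), with 13 separate and lower (22.4%, against 14.0% of all genes) and 3 separate and higher (5.17%, against 17.4%). Among the brighter genes these shares were 20.8% and 13.9%, and 59.5% were below 0. The part of vessel, meningeal or dividing cells in the single genes' differences was not tested.

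**Figure D4:**
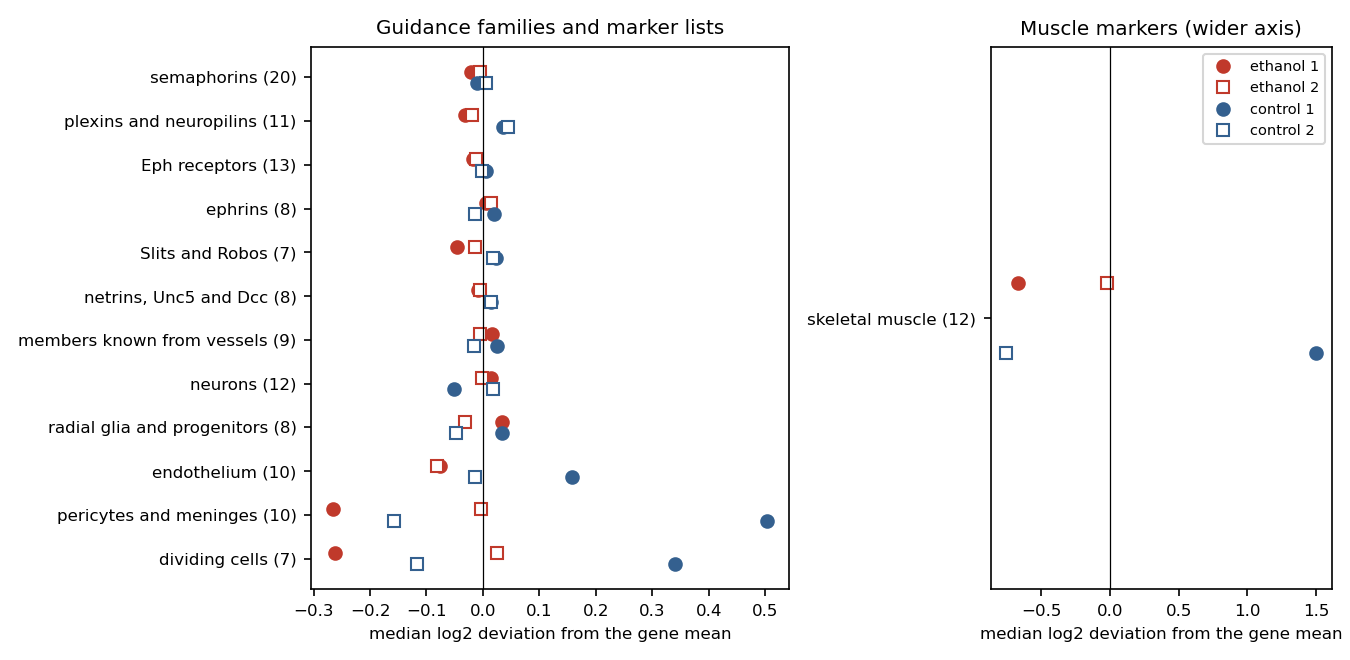
Median log2 deviation from each gene's mean over the 4 arrays, for the guidance families and marker lists (number of genes in brackets), with ethanol in red above control in blue; circles are pool 1 and squares pool 2. Control 1 stands highest in muscle and, at 0.50, in pericyte and meningeal markers, while the guidance families stay between -0.05 and 0.04.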

How the data were processed

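Expression was measured on 4 Affymetrix arrays, 2 of ethanol pools and 2 of control pools. The deposited values are log2 brightness, a single value for each probe set on each array. That the logarithm has base 2 was taken from the range of values. Per the submitters' processing notes Partek 6.6 was used. How background, scaling and probe summary were handled is not stated in the labels. These steps can shift dim probe sets. The lower quartile of an array lay between 6.45 and 6.55, the highest being ethanol 1. The table has 0 columns of other samples.

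Of 35556 probe sets, 21789 had 1 symbol in the platform annotation, and the brightest set stood for each of 19938 genes. The comparison used limma 3.58.1 in R 4.3.3 (lmFit, then eBayes with no trend), two-sided, with Benjamini-Hochberg adjustment over all genes and 95% intervals from the moderated test (2 residual and 5.65 total degrees of freedom). The fit was tested on simulated data. The number of arrays limits the precision. Genes described in full were, in each of 6 families, the 3 with the smallest p and the one with the largest difference, and the members of the smaller families are described as well. "Separate groups" means that the ethanol arrays are both above, or both below, the pair of control arrays. The members and lists were chosen with earlier results of these data known. Promoter letters are from RefSeq, and no genome build is named for the array.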

Additional observations from a re-analysis of the deposited data

How the results depend on the processing

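The count of guidance genes past the adjusted threshold was 0 in every alternative run, by limma and by the ordinary model. The number of arrays limits these results: with 2 per group, the median standard error was 0.076. The 3 genes at an unadjusted p under 0.05 became 5 in the ordinary linear model, and 0 to 5 with an array left out. With an array left out, genes with separate groups numbered 28 to 31 lower and 10 to 17 higher, more than the 16 and 4 because fewer arrays have to be separate. Over all genes the shares were then 27.7% to 32.4% lower and 26.4% to 44.9% higher. The count below 0 ranged from 39 to 42 there, against 48.

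The median of all 67 genes (-0.025) came to -0.00909 after quantile normalization, -0.00826 after centring each array on its median, and -0.038 to -0.025 with an array left out. Family medians under quantile normalization were -0.00347 for semaphorins, -0.00675 for Eph receptors and 0.00875 for netrins, Unc5 and Dcc. Under centring they were -0.011 for semaphorins, -0.033 for plexins and neuropilins, 0.00132 for Eph receptors, -0.019 for Slits and Robos and 0.013 for netrins, Unc5 and Dcc. The mean of all probe sets of a gene gave -0.024 for Eph receptors and -0.00126 for netrins, Unc5 and Dcc, and the brighter genes gave 0.034 for ephrins and 0.00032 for netrins, Unc5 and Dcc. With an array left out the medians ran from -0.034 to 0.00656 (semaphorins), -0.094 to -0.056 (plexins and neuropilins), -0.030 to -0.00645 (Eph receptors), 0.00744 to 0.049 (ephrins), -0.075 to -0.030 (Slits and Robos) and -0.018 to 0.0025 (netrins, Unc5 and Dcc). Centring moves every gene's difference by the same amount, and the median of all genes came to 0.026 there. The cause of the other moves was not tested.

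Among the 19 genes described in full, Epha10 turned to -0.0134 with the mean of its probe sets and ranged from -0.0388 to 0.15 with an array left out, and Ephb4 ranged from -0.31 to 0.13. The other 17 kept their direction in every alternative that held them, but Unc5d came to -0.00618 with the mean of its probe sets, and with an array left out Unc5b came to 0.0061 and Slit1 to 0.0265 at the lowest. No label states that equal replicate numbers mean a pair, and the correlation between the deviations of arrays sharing a number was -0.484. With the replicate block, 0 guidance genes had an unadjusted p under 0.05, and with crossed pairing, added after the data were seen, 7 did, with 0 past the adjusted threshold in both.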
